A study of Mus musculus with 8 samples.

Results

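Interferon-induced antiviral genes were followed in the gastric epithelium of mice on a high fat diet (HFD). The set holds 47 genes, taken by symbol from a list of interferon effectors, sensors and transcription factors. All 47 had a row among the 38920 rows of each deposited table, and all 47 were among the 27401 rows that entered the test. The list names genes and sets no threshold on a measured value, but it was chosen with earlier results of these data known. The counts below are therefore not those of a list chosen blind to the data.

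The series compared 4 libraries from HFD mice, numbered 22, 23, 26 and 27, with 4 libraries titled ND, numbered 15-17-18, 16, 19 and 20 and called controls here. The labels do not spell ND out, and they do not give the composition or length of the diets or the age and sex of the mice. Every library was total RNA, freed of ribosomal RNA, from sorted cells of the stomach of strain C57BL/6, with cell type gastric epithelial cells. The labels name no genetic change and no sorting marker, and they leave unsaid whether the title 15-17-18 means 1 mouse or several pooled.

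Cells that sense viral RNA or DNA, through sensors such as RIG-I and MDA5 in the cytosol, release type I and type III interferons. These bind receptors on the same and neighbouring cells, and kinases at the receptors phosphorylate STAT proteins. STAT2 then joins IRF9 in the factor ISGF3. ISGF3 binds the interferon-stimulated response element (ISRE), a pair of GAAA blocks in the promoters of a large group of genes whose products block viral entry, replication and translation. Interferon gamma acts mainly through another element, the gamma-activated site (GAS). Epithelia that line the gut are known to answer type III interferon in particular, and some of these genes have a basal level without infection.

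Bst2, Isg15, Ifitm3, Oas2 and Rtp4 were 2.37-fold to 3.82-fold higher in the mean of the HFD libraries, and 43 of the 47 genes (91.5%) had a higher mean there, as did 60.1% of all tested rows. The median difference over the 47 genes, HFD minus control, was 0.71 on the log2 scale, against 0.12 over all tested rows. No gene passed the test after Benjamini-Hochberg adjustment over all tested rows (limma). The smallest adjusted p was 0.19, for Bst2. At an unadjusted p under 0.05, 24 of the 47 genes were higher in HFD and 0 were lower, where 6.52% of all tested rows were higher and 4.03% lower. In 15 genes every HFD library lay above every control, as in 4.76% of all tested rows, and in 0 genes every HFD library lay below, as in 3.09% of rows. Across all tested rows, 0.00365% were called higher and 0.0073% lower after adjustment. The genes are coregulated and in part neighbours, so they are not 47 independent observations.

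Levels are given as log2 of the scaled value plus 1, and a difference is the mean of the HFD libraries minus the mean of the controls on that scale, with its standard error (SE) from limma. The deposited values were scaled to a common total, and a few rows took very different shares of it, so the linear values were rescaled by the median ratio over rows measured in all libraries. In control 15-17-18 the 20 highest rows took 85.8% of all reads, in control 19 they took 59.1%, and elsewhere 27.8% to 43.1%. The read depth left for all other rows was estimated at 7.59 M in control 15-17-18 and 6.71 M in control 19, and at 20.3 M to 37.1 M in the others. One read was therefore worth a scaled value of 3.36 and 2.84 in those controls and of at most 0.838 elsewhere. Read numbers below are such estimates and can be fractional. HFD 23 had Spearman correlations of 0.845 to 0.896 with the other libraries, against 0.910 to 0.980 for all other pairs.

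Promoters of the set often hold the core of the ISRE, and the printed stretches are a selection of those that hold it. They were cut from RefSeq promoter windows of assembly GRCm38.p6, which is mm10, reaching from 250 bases before to 50 bases after the annotated start. The search used the core GAAANNGAAA on both strands, where N is any base, so that it also appears as TTTCNNTTTC. Each line runs 5′ to 3′ along the gene's own strand, with the matched bases, merged where matches overlap, in capitals.

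Bst2 (chr8:71537572-71537617, minus strand): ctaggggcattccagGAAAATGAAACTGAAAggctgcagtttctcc
Isg15 (chr4:156200860-156200911, minus strand): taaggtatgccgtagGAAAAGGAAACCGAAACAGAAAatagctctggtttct
Irgm1 (chr11:48871421-48871465, minus strand): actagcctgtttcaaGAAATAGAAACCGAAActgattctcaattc
Ifit1 (chr19:34640770-34640809, plus strand): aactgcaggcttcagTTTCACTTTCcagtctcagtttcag
Ifit1 (chr19:34640789-34640828, plus strand): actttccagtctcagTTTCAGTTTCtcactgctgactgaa
Ifit3 (chr19:34583358-34583397, plus strand): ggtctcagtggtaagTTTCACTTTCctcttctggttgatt
Oas1a (chr5:120907526-120907560, minus strand): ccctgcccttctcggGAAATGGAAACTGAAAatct
Oas1g (chr5:120887614-120887646, minus strand): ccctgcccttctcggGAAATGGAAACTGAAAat
Oas3 (chr5:120777710-120777749, minus strand): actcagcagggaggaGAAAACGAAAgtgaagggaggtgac
Rsad2 (chr12:26456548-26456587, minus strand): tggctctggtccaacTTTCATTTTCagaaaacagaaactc
Stat2 (chr10:128270261-128270300, plus strand): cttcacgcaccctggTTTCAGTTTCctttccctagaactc

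In Bst2, Irgm1, Oas1a and Oas1g 2 matches overlap, and in Isg15 3 matches overlap in one run of GAAA blocks. The Oas1a and Oas1g stretches hold the same letters where both are shown. Windows existed for 37 of the 47 genes, and 20 of these (54.1%) held at least 1 match, against 3.99% of the 27025 genes with a window and 3.44% of the 32851 windows. In 16 of the 20 a match lay wholly before the start. In Ddx58, Eif2ak2, Ifih1 and Ifitm3 the matches lay past the start or over it. Ifitm2, Gbp2, Gbp3, Gbp7, Igtp and Cxcl10 also had a match before the start, and Ifit3 a second stretch, that are not printed. None of those 6 genes met an unadjusted p under 0.05 (limma, 0.052 to 0.35). Of the printed genes all but Stat2 (0.063) were higher at that threshold. The printed selection therefore cannot show whether the core goes with a higher level. The GAS pattern TTCNNNGAA, which is its own reverse complement, was in the windows of 10 of the 37 genes (27%), against 9.55% of genes and 8.3% of windows. In Bst2 a GAS match overlaps the printed ISRE run.

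The 20 genes with an ISRE match had a median difference of 0.91, and 11 of them were higher at an unadjusted p under 0.05. The 17 genes with a window but no match had a median of 0.63, with 8 of them higher at that threshold, so genes of both kinds were among the higher ones. Outside the set, 572 tested genes with a match had a median difference of 0.17, against 0.11 for all 15452 tested genes whose windows held none. Of all 592 tested genes with a match, 9.29% were higher at the unadjusted threshold, against 6.58% of those without. The 592 include the 20 genes of the set, 11 of them higher, so this share is not that of genes outside the set alone. A match is a description of the letters and not a binding site.

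**Figure D1:**
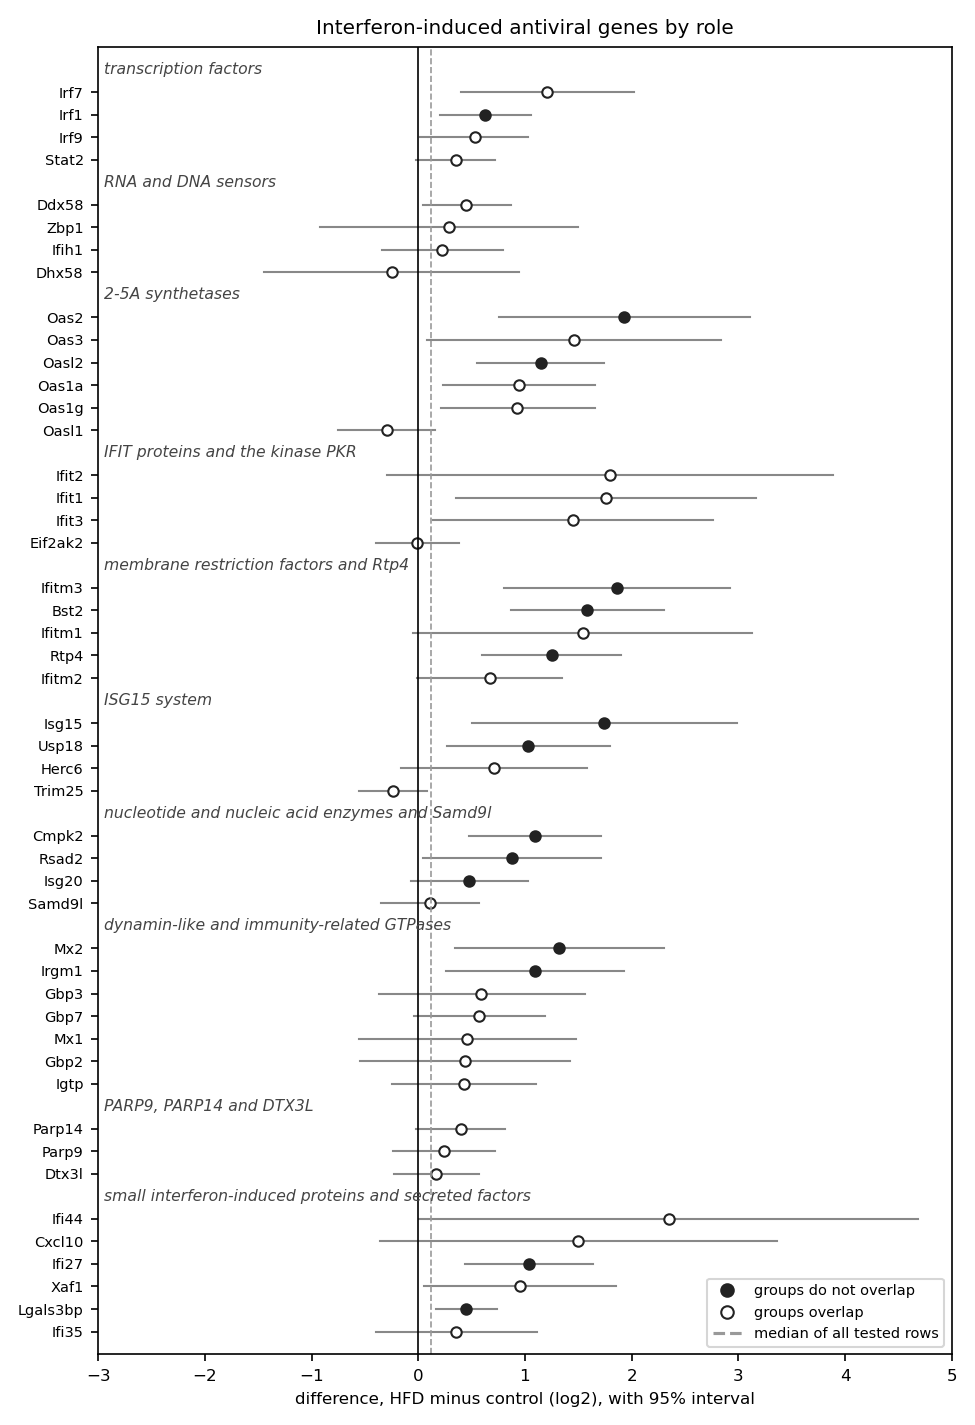
Difference between HFD and control (log2, HFD minus control) with its 95% interval from limma for each of the 47 genes, grouped by role; filled points mark genes in which all HFD libraries lie above all controls, and the dashed line is the median of all tested rows, 0.12. Most points lie right of the dashed line, with Eif2ak2, Trim25, Dhx58 and Oasl1 left of 0.

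Of the 4 transcription factors, Irf1, Irf7 and Irf9 were higher in HFD at an unadjusted p under 0.05, and Stat2 was not. They differed by 0.35 to 1.21, with a median of 0.58 over the 4 genes. Irf7, the factor that amplifies the production of interferon alpha and is itself induced by interferon, had levels of 8.37, 8.02, 8.37 and 9.18 in HFD 22, 23, 26 and 27. In controls 15-17-18, 16, 19 and 20 it had 6.91, 7.35, 6.63 and 8.21. HFD 27 stood highest and control 20 reached into the HFD range, so the groups overlapped. The difference was 1.21 with an SE of 0.36, at an adjusted p of 0.3. Irf1, which binds ISRE-like elements and is itself a primary target of interferon gamma, had 8.75, 8.76, 8.56 and 8.85 in the HFD libraries and 8.38, 7.67, 8.43 and 7.92 in the controls in the same order. Its HFD libraries were close together and all above the controls, with a difference of 0.63, an SE of 0.19 and an adjusted p of 0.3.

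The ISGF3 components Stat2 and Irf9 differed less. Stat2, the subunit that carries the activation domain of ISGF3, had 9.36, 9.22, 9.37 and 9.72 in HFD and 9.26, 9.25, 8.70 and 9.08 in the controls. Only control 19 stood clearly below, the groups overlapped, and the difference was 0.35 with an SE of 0.17 (adjusted p 0.5). Irf9, the subunit that recognises the ISRE, had 8.41, 8.17, 8.32 and 8.73 in HFD and 7.52, 7.94, 7.62 and 8.44 in the controls. Control 20 lay above 3 of the HFD libraries, and the difference was 0.53 with an SE of 0.23 (adjusted p 0.45).

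The 4 sensors of foreign nucleic acid had a median difference of 0.25. Ddx58, which encodes the RNA helicase RIG-I, differed by 0.45 with an SE of 0.19 and was the sensor that met the unadjusted threshold (p 0.036). Ifih1, which encodes MDA5, differed by 0.22 with an SE of 0.25, and Zbp1, a sensor of Z-form nucleic acid, by 0.29 with an SE of 0.54. Dhx58, which encodes the regulator LGP2, had a difference of -0.25 with an SE of 0.53. Its level was 9.37 in control 15-17-18, against 6.80 to 8.15 in the HFD libraries and 6.93 to 7.65 in the other controls. Without that control the Dhx58 difference was 0.26.

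The 2-5A synthetase family holds the enzymes that make the oligoadenylates that activate RNase L, an RNA-cutting enzyme, and 5 of the 6 genes met the unadjusted threshold, all but Oasl1. Oas2 had 8.42, 7.58, 8.11 and 9.22 in HFD and 6.53, 7.26, 4.92 and 6.89 in the controls. HFD 27 was highest, control 19 was far below the rest at 10.3 estimated reads, and the groups did not overlap. The difference was 1.93 with an SE of 0.52, a 3.82-fold ratio on this scale (adjusted p 0.26). Oasl2, a ubiquitin-like family member, had 8.76, 8.27, 8.59 and 9.37 in HFD and 7.20, 7.53, 7.57 and 8.11 in the controls. Every HFD library again lay above every control, by a difference of 1.15 with an SE of 0.26 and an adjusted p of 0.21. Oas1a, Oas1g and Oas3 differed by 0.94, 0.93 and 1.46, with SEs of 0.32, 0.32 and 0.62, and overlapped between the groups. Without control 19 the Oas3 difference was 0.89 with an SE of 0.46.

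Oasl1, which in mice is known to restrain translation of Irf7, had a lower mean in HFD, with 9.42, 9.89, 9.71 and 9.89 in HFD and 10.20, 10.30, 9.43 and 10.15 in the controls. Control 19 lay within the HFD range, and the 95% interval of the difference of -0.29 ran from -0.75 to 0.16. Oas1a, Oas1g, Oas3 and Oas2 lie on chromosome 5 between positions 120730333 and 120907544, and Oasl2 and Oasl1 between 114896926 and 114937911. Oas1a and Oas1g are close copies that can share reads, as can Oasl1 and Oasl2, and how the authors counted shared reads is not given in the sources used here.

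The IFIT proteins bind viral RNA that lacks the host cap structure. Ifit1 differed by 1.76 with an SE of 0.63 and Ifit3 by 1.45 with an SE of 0.58, both at an unadjusted p under 0.05. Ifit1 stood at 7.84 in HFD 27 and between 5.85 and 6.23 in the other HFD libraries, and control 16, at 6.15, lay among them. Ifit2 differed by 1.80 with an SE of 0.93 and was listed at 0 in control 15-17-18. The 3 genes lie together on chromosome 19 between 34550550 and 34650009. Eif2ak2, which encodes PKR, the kinase that stops translation on double-stranded RNA, had a difference of -0.01 with a 95% interval of -0.40 to 0.38.

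Among the membrane factors, Bst2, Ifitm3 and Rtp4 had the HFD libraries wholly above the controls. Bst2, or tetherin, which holds budding virions to the cell surface, lies at chr8:71534255-71537472 and had 7.61, 7.54, 8.16 and 8.04 in HFD. In the controls it had 6.35, 5.37, 6.57 and 6.74, from 23.9, 56.4, 33.0 and 212 estimated reads. The gap between the groups was wider than the range within the HFD group, and control 16, a deep library, was the lowest of all. The difference was 1.58 with an SE of 0.32, a 3.0-fold ratio, at an unadjusted p of 0.00065, the smallest of the set.

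Ifitm3, a membrane protein that blocks viral fusion in endosomes, had 5.89, 6.34, 5.86 and 6.29 in HFD and 3.85, 4.0, 5.44 and 3.64 in the controls. Control 19 came close to the HFD range while the other controls lay far below. Its reads were 69.5, 96.6, 99.8 and 107 in HFD and 4, 21, 15 and 23 in the controls. The difference was 1.86 with an SE of 0.47, a 3.63-fold ratio, at an adjusted p of 0.25. Rtp4, a chaperone of membrane receptors that is also induced by interferon, had 7.32, 6.70, 6.71 and 7.54 in HFD and 5.48, 5.93, 5.75 and 6.13 in the controls. No library of either group crossed into the other, and the difference was 1.25 with an SE of 0.29 (adjusted p 0.21). Ifitm2 differed by 0.67 with an SE of 0.30. Ifitm1 differed by 1.54 with an SE of 0.71 but rested on few reads, with 2 controls at 0. Ifitm2, Ifitm1 and Ifitm3 lie between 140954837 and 141010744 on chromosome 7.

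ISG15 is a ubiquitin-like modifier that is joined to viral and host proteins. Isg15 had 6.19, 6.18, 6.64 and 7.87 in HFD and 5.59, 4.98, 3.63 and 5.72 in the controls, from 86.2, 86.3, 172 and 323 reads in HFD and 14, 43, 4 and 104 in the controls. HFD 27 was well above the rest, control 19 was lowest on 4 reads, and the groups did not overlap. The difference was 1.74 with an SE of 0.56, a 3.35-fold ratio (adjusted p 0.32). Usp18, the protease that removes ISG15 and damps signalling at the interferon receptor, had 7.06, 6.66, 6.80 and 7.57 in HFD and 5.35, 6.21, 5.75 and 6.65 in the controls. The lowest HFD library, at 6.66, lay just above the highest control, and the difference was 1.03 with an SE of 0.34 (adjusted p 0.34). Herc6, the main ISG15 ligase in mice, differed by 0.71 with an SE of 0.39, and Trim25, a ubiquitin ligase that acts on RIG-I, by -0.24 with a 95% interval of -0.56 to 0.08.

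**Figure D2:**
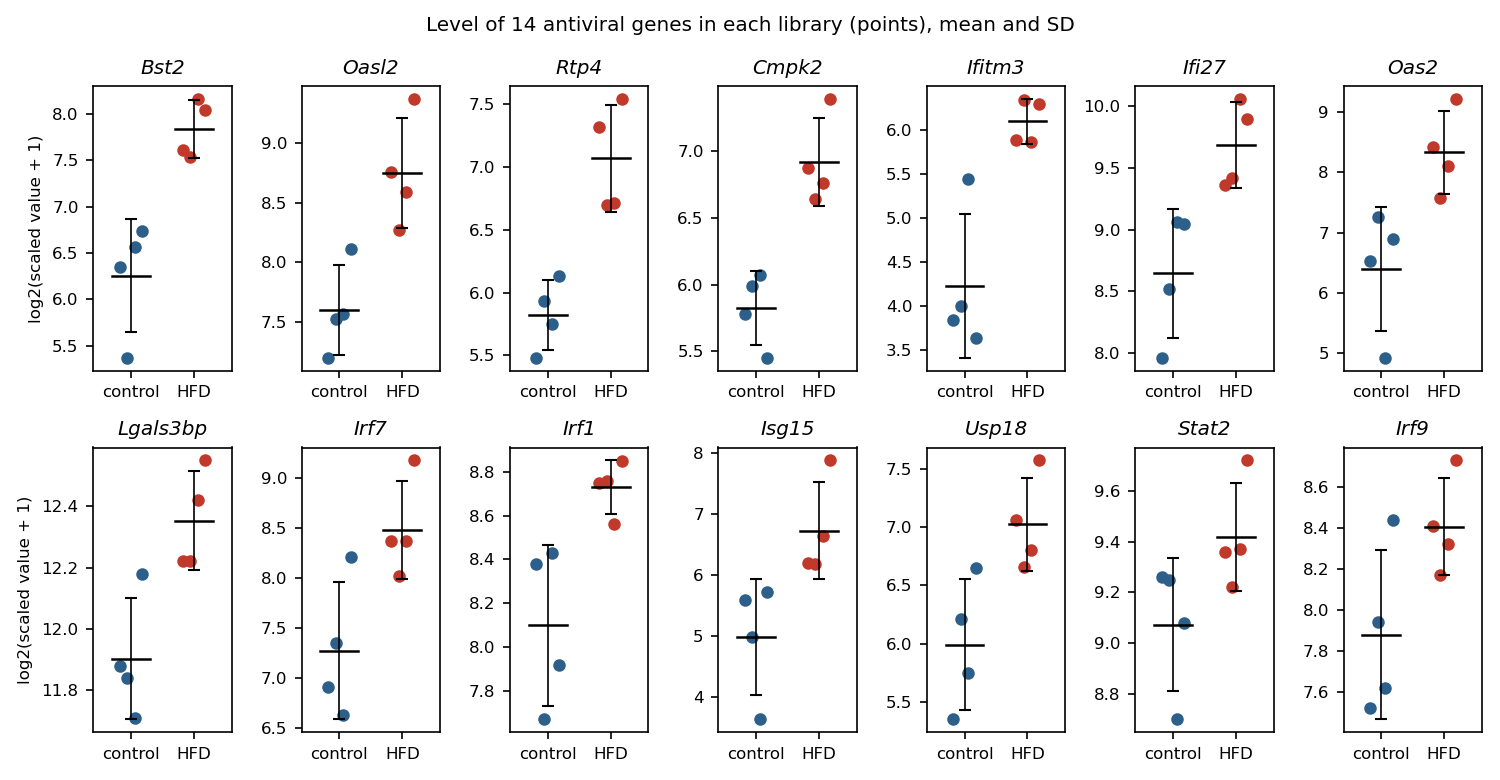
Level, as log2 of the scaled value plus 1, of 14 genes in each control and HFD library (points), with the mean (bar) and SD (whiskers) of the 4 libraries of a group. In Bst2, Oasl2, Rtp4, Cmpk2 and Ifitm3 the HFD points all lie above the control points, while in Irf7, Irf9 and Stat2 they overlap.

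Enzymes that act on nucleotides and nucleic acids included a pair of neighbours on chromosome 12, Rsad2 and Cmpk2, between 26442743 and 26479837. Rsad2 encodes viperin, which makes a chain-terminating ribonucleotide, and Cmpk2 a mitochondrial kinase that supplies its substrate. Cmpk2 had 6.87, 6.64, 6.76 and 7.39 in HFD and 5.78, 5.99, 6.07 and 5.45 in the controls. The controls all lay below the lowest HFD library, with a difference of 1.09, an SE of 0.27 and an adjusted p of 0.24. Rsad2 differed by 0.88 with an SE of 0.37 and also did not overlap, although control 15-17-18, at 6.04, was close to HFD 26 at 6.10. Isg20, an RNA exonuclease, differed by 0.48 with an SE of 0.25, with its HFD libraries above the controls by as little as 7.56 against 7.55. Without HFD 23, at 8.55, the Isg20 difference was 0.25 with an SE of 0.20. Samd9l, which blocks translation, differed by 0.11 with a 95% interval of -0.35 to 0.57.

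The 7 GTPases all had positive differences, from 0.43 to 1.32, of which 2 met the unadjusted threshold. Mx2, one of the dynamin-like Mx proteins, differed by 1.32 with an SE of 0.44, and Irgm1, which acts on intracellular pathogens and autophagy, by 1.09 with an SE of 0.37. In both genes every HFD library lay above every control, and without control 15-17-18 the Irgm1 difference was 0.66 with an SE of 0.19. Mx1 differed by 0.46 with an SE of 0.45, with 8.24 in control 15-17-18 above all HFD libraries but HFD 27, at 8.45. The guanylate-binding proteins Gbp2, Gbp3 and Gbp7 differed by 0.44, 0.59 and 0.57, with SEs of 0.44, 0.43 and 0.27, and Igtp by 0.43 with an SE of 0.30. In strain C57BL/6 the Mx genes are known to carry defects that leave no working protein, while their RNA is still induced by interferon. PARP9 and DTX3L form a complex that modifies histones, and Parp9, Parp14 and Dtx3l differed by 0.24, 0.40 and 0.17, with SEs of 0.21, 0.19 and 0.18. None of these 3 met the unadjusted threshold.

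Of the 6 small or secreted proteins, Ifi27 and Lgals3bp did not overlap between the groups. Ifi27, a small mitochondrial protein induced by type I interferon, had 9.36, 9.42, 10.06 and 9.90 in HFD and 7.96, 8.52, 9.06 and 9.05 in the controls. HFD 26 was highest here, unlike in most of the set, and the difference was 1.04 with an SE of 0.27 (adjusted p 0.25). Lgals3bp, a secreted glycoprotein that binds galectin-3, had 12.22, 12.22, 12.42 and 12.55 in HFD and 11.88, 11.84, 11.71 and 12.18 in the controls. The gap from control 20 to the lowest HFD library was small, but the spread was narrow in both groups, and the difference was 0.45 with an SE of 0.13 (adjusted p 0.28).

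Ifi44 differed by 2.35 with an SE of 1.04, but it was listed at 0 in control 15-17-18, and without that control it differed by 1.27 with an SE of 0.64. Xaf1, a factor that favours cell death, differed by 0.95 with an SE of 0.40, and Ifi35 by 0.35 with an SE of 0.34. Cxcl10, a chemokine that draws T cells, differed by 1.50 with an SE of 0.83 and was listed at 0 in controls 15-17-18 and 16. In all, 15 of the 47 genes were under 10 estimated reads in at least 1 library. The shallow controls 15-17-18 and 19 each had 12 such genes, and every other library had 1 to 3.

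The level of the set differed by library as well as by group. Relative to each gene's mean over the 8 libraries, the median over the 47 genes was 0.86 in HFD 27, and 0.29, 0.09 and 0.22 in HFD 22, 23 and 26. In controls 15-17-18, 16, 19 and 20 it was -0.59, -0.20, -0.48 and -0.14. The 4 HFD medians were thus all above the 4 control medians, with HFD 27 far above the other HFD libraries and HFD 23 nearest to the controls. Over all tested rows the same medians lay between -0.19 and 0.13. HFD 27 was the highest library for 33 of the 47 genes, against 6.6% of all tested rows. Control 19 was lowest for 19 and control 15-17-18 for 17, against 8.8% and 27.5% of rows.

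**Figure D3:**
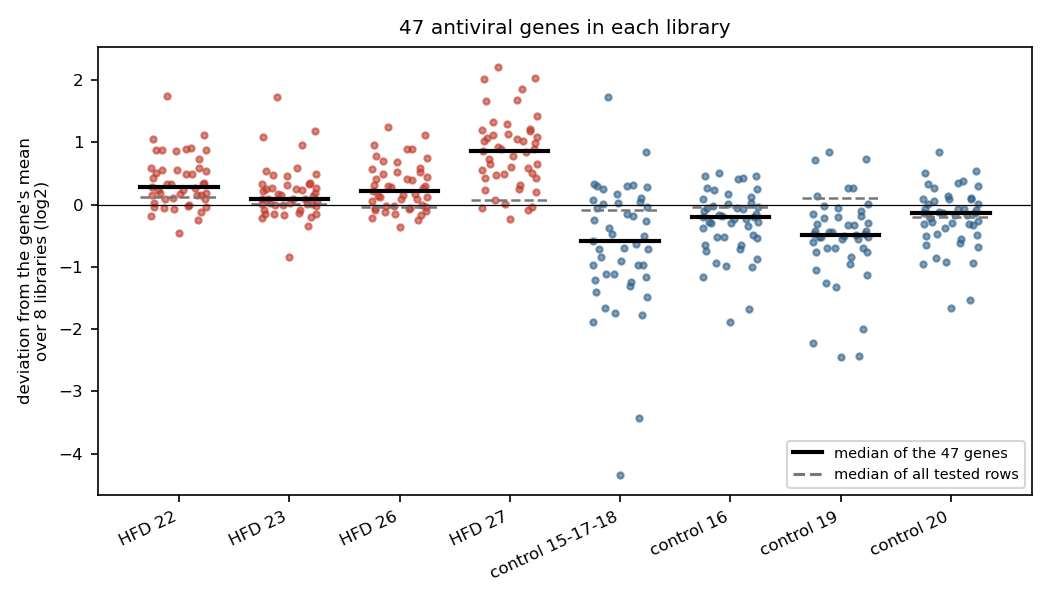
Deviation of each of the 47 genes from its own mean over the 8 libraries (log2), by library, with the median of the 47 genes (solid bar) and of all tested rows (dashed bar). The median in HFD 27 is 0.86, and those of the controls lie between -0.59 and -0.14.

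Because 1 HFD library and 2 shallow controls sat at the ends, the counts were taken again without them. Without HFD 27, 15 of the 47 genes were higher at an unadjusted p under 0.05, against 5.02% of all rows tested in the remaining 7 libraries, and the median difference was 0.64. Without controls 15-17-18 and 19 together, 14 were higher, against 6.09% of rows, and the median was 0.56 against 0.14 over all rows. Rescaled over the 6 libraries then left, 16 genes had every HFD library above both remaining controls, among them 12 of the 15 above, against 13% of rows. Control 20 was kept in these counts, and its median of -0.14 was the control median nearest to the HFD group. Without control 20 alone, 23 genes did not overlap, against 7.62% of rows, where all 8 libraries gave 15 against 4.76%. That was the top of the range of 14 to 23 with 1 library left out, and fewer controls make non-overlap easier to meet. Oasl1 was lower in HFD at the unadjusted threshold without controls 15-17-18 and 19, by -0.54 with an SE of 0.16, where 5.2% of rows were lower. Without control 19 alone, Oasl1 and Trim25 were lower, by -0.49 and -0.34 with SEs of 0.14 and 0.13, where 4.91% of rows were lower. Without further scaling, on the authors' deposited scale, all rows shifted by a median of 0.90 and the set by 1.52, with 23 of 47 higher against 9.25% of rows. After quantile normalization, 14 were higher against 4.06% of rows, and 5 did not overlap against 2.6% of rows. The 4 genes with a negative difference, Dhx58, Oasl1, Eif2ak2 and Trim25, were positive on the deposited scale, but there each lay below the median shift of all rows, at 0.60, 0.56, 0.85 and 0.62.

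The other genes of the pathway had a median difference of 0.17, against 0.71 for the set and 0.12 for all rows. Of 73 further genes for ligands, receptors, signalling proteins, sensors and induced proteins, 67 were tested. Of these, 47 (70.1%) had a positive difference, against 60.1% of all rows, and 0 passed after adjustment. At an unadjusted p under 0.05, 6 (8.96%) were higher and 1 (1.49%) was lower, near the 6.52% and 4.03% of all rows. The count of 6 was 3 without HFD 22, without HFD 27 or without control 15-17-18, against 4.46%, 5.02% and 4.6% of rows. It was 2 of 66 (3.03%) without that control and control 19, against 6.09% of rows. The 33 further interferon-induced genes among them, those most like the set, also had a median of only 0.17. Of these 33 genes, 23 had a positive difference, 4 were higher at an unadjusted p under 0.05 and 3 had every HFD library above every control. Over all tested rows these shares were 60.1%, 6.52% and 4.76%. The highest of the 33 were Apol9b, an apolipoprotein L family member, with 2.10 and an SE of 0.67, and Parp12, a PARP with antiviral action, with 1.57 and an SE of 0.57. Ube2l6, the conjugating enzyme for ISG15, differed by 0.79 with an SE of 0.29 and an adjusted p of 0.39, and Uba7, the enzyme that activates ISG15, by 0.43 with an SE of 0.17 and an adjusted p of 0.43. Parp12 stood at 10.99 in HFD 23, against 8.47 to 8.75 in the other HFD libraries and 6.76 to 8.03 in the controls, and without HFD 23 its difference was 0.98 with an SE of 0.31. The lower gene was Ticam1, the adaptor TRIF of TLR3, with a difference of -0.41, an SE of 0.11 and an adjusted p of 0.26. All its HFD libraries lay below the controls, but on the deposited scale its difference was 0.44.

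Of the 6 genes for interferon receptor chains, 1 met the unadjusted threshold. Ifnar2, the chain of the type I receptor that carries STAT2, had 6.62, 7.30, 6.47 and 6.48 in HFD and 5.62, 6.37, 6.10 and 5.49 in the controls. The groups did not overlap, and the difference was 0.82 with an SE of 0.31 (adjusted p 0.41). Ifnar1, its partner chain, differed by 0.10 with an SE of 0.13. Of the receptor chains for interferon gamma, Ifngr1 differed by 0.24 with an SE of 0.11 and Ifngr2 by -0.01 with an SE of 0.13. Of those for interferon lambda, Ifnlr1 differed by -0.18 with an SE of 0.19 and Il10rb by 0.27 with an SE of 0.17.

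Interferon transcripts themselves were few. Ifng, Ifnl3, Ifna1, Ifna2, Ifna4 and Ifna5 were at no more than 2 estimated reads in any library and were not tested. Ifnb1, the gene of interferon beta, had 2.95, 10.04, 2.62 and 2.88 in HFD and 0, 3.02, 0 and 1.32 in the controls, and was named after its values were seen. The level in HFD 23 rested on 1271 estimated reads, where every other library had at most 10. Its difference was 3.54 with an SE of 1.64 over all libraries and 1.70 with an SE of 0.86 without HFD 23. In HFD 23 the median deviation of the 47 genes was 0.09, the lowest of the HFD group. Any link between Ifnb1 and the level of the set was not tested.

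**Figure D4:**
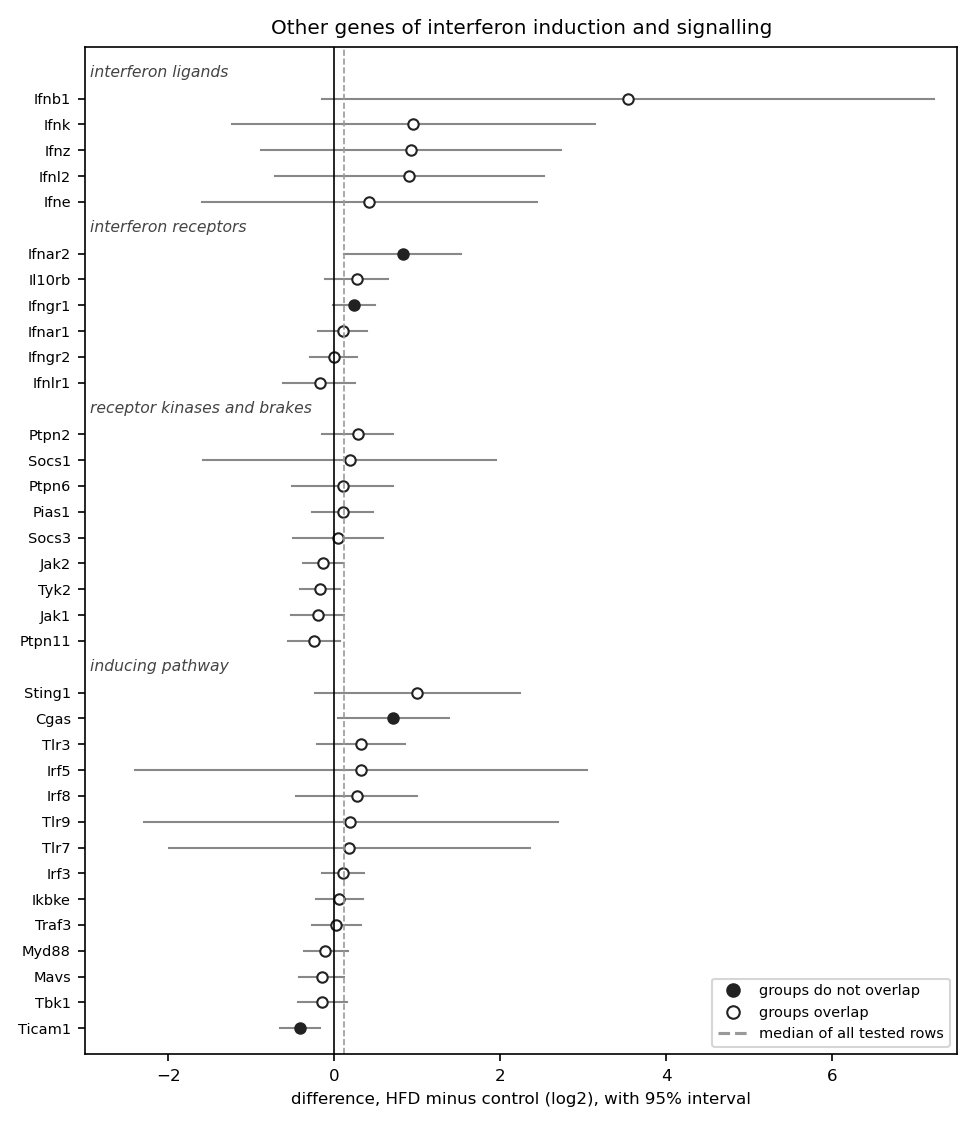
Difference between HFD and control (log2, HFD minus control) with its 95% interval from limma for tested genes of interferon induction and signalling outside the set; filled points mark groups that do not overlap, and the dashed line is the median of all tested rows, 0.12. Ifnb1 has the widest interval, Ifnar2, Ifngr1 and Cgas are filled and above 0, and Ticam1 is filled and below 0.

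Markers of other cells were read beside these genes, since in bulk RNA fewer cells of a type and less RNA per cell cannot be told apart. The summed level of 16 gastric epithelial markers was 21.63 to 21.77 in HFD and 21.06 to 21.59 in the controls, far above every other marker list in every library. The largest part of that sum was Pgc, at 20.97 to 21.36 in HFD and 19.99 to 21.10 in the controls. The median difference of the 16 epithelial genes was -0.09. At the unadjusted threshold, Epcam, Pgc and Cblif (intrinsic factor) were higher, by 0.69, 0.67 and 1.46, and Muc5ac and Cdh1 were lower, by -1.61 and -0.42. All 7 smooth muscle markers were higher in HFD at an unadjusted p under 0.05 with no overlap, with a median difference of 1.85 and a summed level of 11.50 to 12.17 against 9.01 to 10.91. The summed level of 19 leukocyte markers was 8.42 to 9.04 in HFD and 8.18 to 12.75 in the controls. The value of 12.75, in control 15-17-18, came from Coro1a at 12.60, and 10 of the 19 leukocyte markers were at 0 there. S100a8 was at 0 in all libraries. Ptprc, the defining pan-leukocyte gene CD45, differed by 0.31 with an SE of 0.48, and 3 of the 16 leukocyte markers tested, Cd3e, Cd53 and Tyrobp, were higher at the unadjusted threshold, on at most 20, 32.7 and 12.3 reads in any library. Of those 16, 12 had a positive difference, and their median of 0.68 was close to the 0.71 of the set. The smooth muscle sum was lowest among the HFD libraries in HFD 27, where the set was highest. The leukocyte markers Cd3e, Cd79a and Csf1r were highest of all libraries in HFD 27, and the other detected leukocyte markers in other libraries. The leukocyte sum in HFD 27 was 8.95, within the range of the HFD group. The summed endothelial and fibroblast levels overlapped between the groups, at 10.78 to 11.20 against 9.93 to 11.60 and at 11.01 to 12.29 against 10.39 to 12.70. Forestomach squamous markers summed to 11.06 to 12.32 in HFD and 6.85 to 11.19 in the controls, with 3 of 7 higher at the unadjusted threshold and a median difference of 2.13. The part of these cells in the differences of the set was not tested.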

How the data were processed

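Each library has 1 deposited table of log2 values for 38920 rows, keyed by NCBI gene numbers. The unit is read from the values: the authors' antilogs sum to 36.88 M in every library. The submitters' processing notes name mm10 and bedtools 2.17.0, and no source used here gives the aligner, annotation or normalization. The worth of 1 read was taken as the gap between the 2 most frequent low values. Between 22.9% and 34.9% of values under 2000 reads were whole within 0.01, so no count test was run and depths (16.4 M to 63.2 M reads) are estimates.

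Linear values were divided by a median-ratio factor (geometric mean reference over 11115 rows above 30 in all libraries) and taken as log2(value + 1), which understates the change of low genes. The 27401 rows at or above a deposited value of 1 in no fewer than 4 libraries were fitted in R 4.3.3 by limma 3.58.1, using its trend and robust options, two-sided, with Benjamini-Hochberg adjustment and a threshold of 0.05, and the code was tested on simulated data. P-values measure the spread between these libraries, which may be technical; no batch is labelled. Alternatives were the deposited scale, quantile normalization, pseudocounts of 10 and 100, other filters, limma without those options and each library left out. Array weights and leaving out controls 15-17-18 and 19 together were chosen after seeing the data.

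The genes and lists were chosen with earlier results of these data known. Values in every library are given for the 12 genes of the set with the smallest p and for Stat2, Irf7, Irf9 and Isg15. Of the other pathway genes, the receptors and the 6 with the smallest p are named, 1 listed gene is not reported here, and the ligands were added after their values were seen. Symbols and coordinates come from the RefSeq table and promoters of GRCm38.p6, counted from 1.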

Additional observations from a re-analysis of the deposited data

Results flagged for a closer look

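In 63 genes, the 47 antiviral genes and the pathway genes named, each group of 4 libraries was searched for a library far from the other 3 by Dixon's test. Of 126 groups, 11 stood out, where chance gives about 1 in 20. Isg20 in HFD 23 was at 8.55, against 7.56 to 7.69 in the other HFD libraries. Parp12 in HFD 23 was at 10.99, against 8.47 to 8.75, and Ifnb1 in HFD 23 at 10.04, against 2.62 to 2.95. Herc6 in HFD 27 was at 6.42, against 5.68 to 5.71, and Gbp3 in HFD 27 at 6.64, against 5.16 to 5.40. Ifitm1 in HFD 27 was low at 1.58, on 2.8 estimated reads, against 2.62 to 2.78. Among the controls, Irgm1 was at 5.77 in control 15-17-18, on 15.9 reads, against 7.27 to 7.49. Ddx58 was at 8.58 in control 16, against 8.12 to 8.19, and Dtx3l at 8.06 in control 19, against 8.56 to 8.63. Uba7 was at 8.62 in control 19, against 9.13 to 9.21. Ifnl2 was at 1.31 in control 19, on 0.5 estimated reads, and at 0 in the other controls.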

How the results depend on the processing

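No gene of the set was called under any alternative: the smallest adjusted p was 0.068, with array weights. The median difference of the set was 1.52 on the deposited scale and 0.33 with a pseudocount of 100, which shrinks low genes, and between 0.56 and 0.94 under the others. Quantile normalization left 14 genes higher at an unadjusted p under 0.05, 5 without overlap and 3 other pathway genes, and the cause was not tested. Without controls 15-17-18 and 19 together these counts were 14 genes, 16 without overlap and 2 pathway genes, with fewer libraries. Leaving out 1 library at a time gave 15 (without HFD 27) to 24 genes higher, 14 to 23 without overlap and 3 to 8 pathway genes, where 4.46% to 8.37% of rows were higher and 5.59% to 9.39% did not overlap. Single genes changed sign as follows, with the cause not tested. On the deposited scale Dhx58 was 0.60, Oasl1 0.56, Eif2ak2 0.85, Trim25 0.62, Ifngr2 0.84, Ifnlr1 0.67 and Ticam1 0.44, all below its shift of 0.90 for all rows. With array weights Dhx58 was 0.36 and Eif2ak2 0.06, and after quantile normalization Ifnz was -0.17. Without both shallow controls Dhx58 was 0.18, Samd9l -0.05, Gbp2 -0.15, Dtx3l -0.01, Ifnk -0.25 and Ifnz -0.37. With 1 library left out, Dhx58 ran from -0.53 to 0.26, Eif2ak2 from -0.11 to 0.07, Ifih1 from -0.03 to 0.34, Zbp1 from -0.06 to 0.48, Samd9l from -0.05 to 0.28, Ifne from -0.28 to 0.99 and Ifngr2 from -0.09 to 0.06. No paired analysis was possible because the groups share no replicate number. Depth limits the low genes most in controls 15-17-18 and 19, where 12 of the 47 genes each rested on under 10 estimated reads.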

Other observations

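HFD 23 also held high levels of a second gene of interferon induction. Irf5, a factor that drives interferon and cytokine genes downstream of Toll-like receptors, was at 9.15 in HFD 23, on 683 estimated reads, against 3.85 to 4.32 in the other HFD libraries and 3.88 to 6.37 in the controls. Ifne, the interferon of epithelial surfaces, was at 6.00 there, on 76.0 reads, against 2.15 to 3.87 in the other HFD libraries and 2.55 to 4.73 in the controls. These genes were picked after their values were seen, and no test was made of them as a group.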
